A study of Homo sapiens with 2 samples.

Results

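Olfactory receptor genes with a value in extracellular vesicles of LAD2 are described here. Membership rested on the gene symbol and on having a value, not on how high the value was. A gene identifier was taken where its symbol was OR, a family number, subfamily letters and a gene number, with or without a final P for a pseudogene. Of 858 identifiers of that form, 97 (11.3%) had a value, and the same 97 had one in both libraries. LAD2 is an established human mast cell line, grown per the labels in SP34 medium with SP34 nutrients and stem cell factor. Vesicles, which cells shed as small membrane-bound packets, were collected after 4 days of culture, and total RNA from them was sequenced in 2 libraries, replicates 1 and 2, which form the only group. The series concerns vesicle mRNA that mast cells hand to colorectal cancer cells, but no recipient cells and no parent LAD2 cells were analysed here. Separate cultures are not stated for the replicates in the labels, so their spread may be technical, and with 1 group there is no test between conditions.

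Olfactory receptors are G protein-coupled receptors that detect odorants on the cilia of the sensory neurons of the nose. Each mature neuron expresses a single receptor allele out of the whole family, and the receptor signals through the olfactory G protein, adenylyl cyclase 3 and a cyclic nucleotide-gated channel. The genes stand in tandem clusters on many chromosomes, usually have their whole coding sequence in a single exon, and include many pseudogenes, and a few receptors are also known from cells outside the nose.

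Values were deposited as log2 and are called levels below. Over all 14467 genes the median level was 3.09 in replicate 1 and 3.04 in replicate 2. A gene was called detected when its linear value, 2 to the power of the level, was at least 10 in both libraries. Where 42.5% of protein-coding genes had a value, 10 of 12 mast cell markers did, with a median of 2.43. Of these 10 markers 3 were detected, where 45.5% of all genes with a value were. FCER1A and FCER1G, subunits of the IgE receptor, had no value. MS4A2, another subunit, had 1.22 in replicate 1 and 1.24 in replicate 2. The highest marker was the transcription factor GATA2, at 8.89 in replicate 1 and 9.16 in replicate 2. SIGLEC6 and MRGPRX2 were the other detected markers. MRGPRX2 was 1 of 4 markers that lay at an edge, as defined below. No read depth is given in the deposited files.

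The receptor family was low as a whole. The median member stood at 2.20 in replicate 1 and 2.24 in replicate 2, below the medians of all genes, and 33 of the 97 members had a mean above the all-gene median of 3.06. Member means ran from -1.06 to 9.14, with quartiles of 1.08 and 3.53. Detected members numbered 28, and 69 did not reach the threshold, whereas 45.5% of all genes with a value were detected. The members made up 0.670% of the genes with a value, but 0.0846% of the summed linear value in replicate 1 and 0.0796% in replicate 2. Just inside the threshold stood OR2AT4, with a mean of 3.37, and just outside it OR4A46P, with 3.31.

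OR10V1 stood far above every other member. Its level was 9.06 in replicate 1 and 9.22 in replicate 2 (mean 9.14 ± 0.11, SD, n = 2), which is 2.89 above the second member on the log2 scale. It alone made up 36.1% of the summed linear value of the family in replicate 1 and 40.5% in replicate 2, and 518 genes had a higher mean. The gene is a single exon of 930 bases on the minus strand of chromosome 11, at chr11:59712916-59713845 in the GRCh38 build, with a level per kilobase of exon of 9.25. Of these bases, 335 are also exonic in STX3, which runs the other way from chr11:59713456-59805882 and encodes syntaxin 3, a SNARE protein of membrane fusion. STX3 had 2.20 in replicate 1 and 2.24 in replicate 2, and its mean minus that of OR10V1 was -6.93. The library kit is named in the labels without its strand type and the sources used here do not state the counter's strand option, so the strand of the RNA behind any receptor value cannot be told. The 150 bases that cross the border of the shared stretch, chr11:59713396-59713545, are printed on the strand of OR10V1 from the GENCODE 29 transcript, with the 90 bases shared with the STX3 exon in capitals:
OR10V1: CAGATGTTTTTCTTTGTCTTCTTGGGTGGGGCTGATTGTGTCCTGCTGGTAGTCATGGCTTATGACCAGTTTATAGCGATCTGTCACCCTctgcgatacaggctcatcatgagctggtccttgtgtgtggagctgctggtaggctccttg

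The other receptors with a mean above 5 were OR2AT1P, OR2H2, OR8D1, OR8D2, OR6F1 and OR13G1. OR2AT1P, a pseudogene on the minus strand at chr11:75131138-75131880, had 6.58 in replicate 1 and 5.94 in replicate 2. OR2H2, on the plus strand at chr6:29585121-29590500, had 6.01 and 6.03. The libraries differed clearly for the pseudogene and hardly at all for OR2H2. OR8D1 had 5.99 in replicate 1 and 5.73 in replicate 2, and its neighbour OR8D2 had 5.73 and 5.32. OR6F1 had 5.28 and 5.41, and OR13G1 had 5.28 and 5.01. Replicate 1 was the higher library for both OR8D genes and OR13G1, and replicate 2 for OR6F1.

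Receptor transcripts differ widely in length, so the order changes per kilobase of merged exons. On that log2 scale OR10V1 led with 9.25, followed by OR2AT1P with 6.69 and OR8D2 with 5.45. OR1F1 followed with 4.63, OR14A2 with 4.57, OR6F1 with 4.53 and OR2H2 with 4.31. OR1F1, OR14A2 and OR6F1 differ by about the SD of a single one of them, which reached 0.09, so their order should not be read as a ranking. OR8D1, whose annotated exons are long, had 2.77 per kilobase against 5.86 as deposited.

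Below these stood 21 detected members between 3.37 and 4.82. OR1C1 had 4.94 in replicate 1 and 4.70 in replicate 2. OR14A2 had 4.62 and 4.76, OR1F1 had 4.52 and 4.58, and OR2I1P had 4.40 and 4.44. OR1C1 was higher in replicate 1 and the other 3 in replicate 2. OR2AJ1, OR4K2, OR52I2, OR2T33, OR8B3, OR8C1P, OR52Z1P, OR2L5 and OR8B8 completed the 20 highest members, with means from 3.65 to 4.21. OR6M1, OR8A1, OR56B1, OR2AT4 and 4 members with the same pair of 3.57 and 3.48, OR10AD1, OR2J1, OR4K12P and OR8B12, made up the rest. The lowest members were OR7C1 and OR10G3, both at -1.06 in each library, OR1M1 at -0.77, and 8 members that shared the pair of -0.23 and -0.24.

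**Figure D1:**
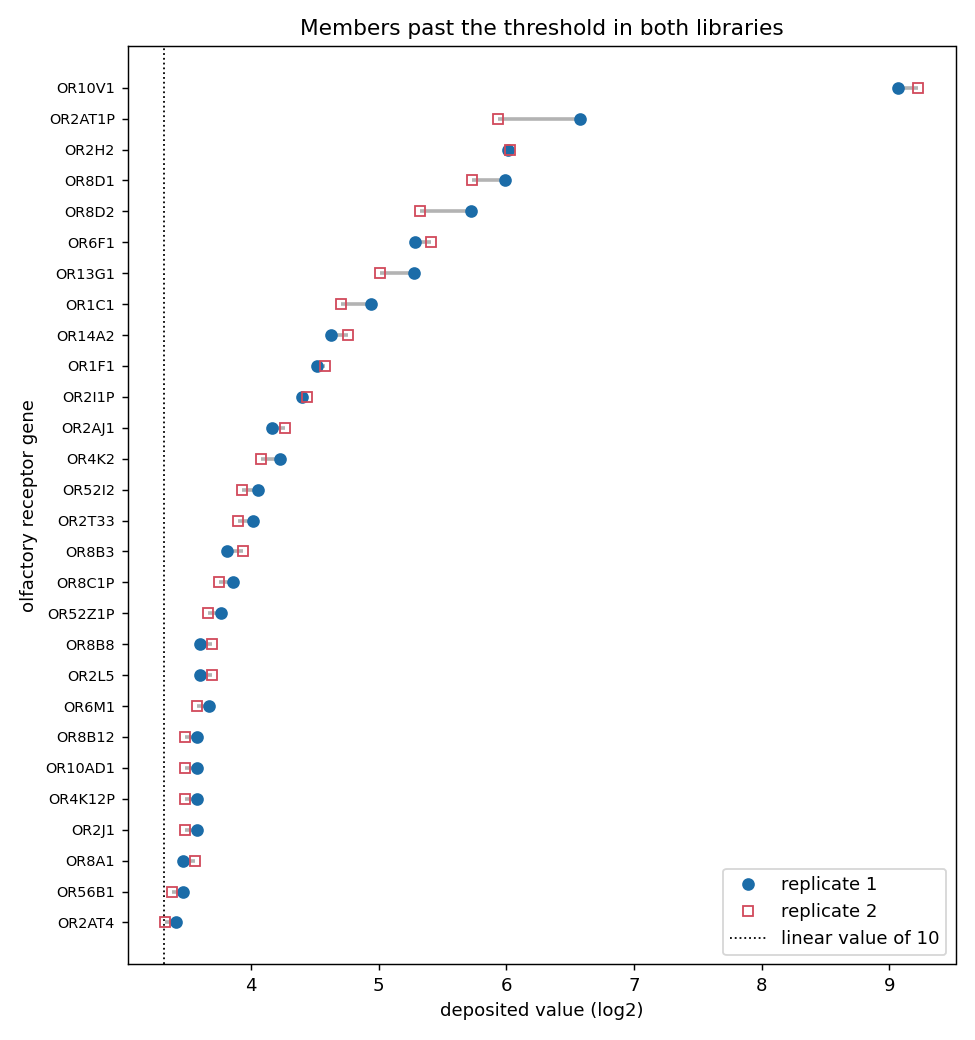
Deposited log2 level of the 28 detected receptor genes in replicate 1 (filled circles) and replicate 2 (open squares), with a grey line joining the libraries and a dotted line at a linear value of 10. OR10V1 lies apart at 9.06 and 9.22, and OR2AT1P has the widest gap, from 5.94 to 6.58.

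No detected member differed 2-fold between the libraries, where 0.182% of all detected genes were higher in replicate 1 and 0.0152% in replicate 2 by that much. At a ratio of at least 5 to 4, OR2AT1P (1.56-fold) and OR8D2 (1.32-fold) were higher in replicate 1, which 3.42% of detected genes were, and no member was higher in replicate 2, which 4.09% were. Of the 28 detected members 17 were higher in replicate 1 by any amount and 11 in replicate 2, against 55.6% of all detected genes higher in replicate 1. The median difference, replicate 2 minus replicate 1, was -0.09 for the members and -0.02 for all detected genes. It ran from -0.64 for OR2AT1P to 0.16 for OR10V1. The sign of the median was not stable: it was 0.015 at a linear threshold of 20 and 0.034 without the members at an edge, as defined below.

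At each level the difference between the libraries had a sharp upper and lower edge, which narrowed towards 0 at low levels, as in values shrunken towards a common mean. For each gene the log2 difference between the libraries was divided by 2 to the power of its mean level. A gene was at an edge when this ratio reached 95% of the largest in the same direction among genes within 0.25 of its level. The rule covered means up to 5. Of the 90 members with such a mean 84 lay at an edge, compared with 71.4% of all genes in that range. The replicate 1 edge held 71 of them (54.5% of all genes) and the replicate 2 edge 13 (16.9% of all genes). The 6 members between the edges were OR14A2, OR1F1, OR2I1P, OR2AJ1, OR10V2P and OR10V3P.

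Edge values were also stepped. The commonest low linear value was 0.8498 at the replicate 1 edge, shared by 753 genes, and 1.18 at the replicate 2 edge, shared by 465 genes. Within 0.05 of a multiple, 75.4% of all edge genes were whole multiples of that value, and 67 of the 84 edge members were. Genes between the edges were whole multiples in 6.997% of cases in the units of replicate 1 and 8.10% in those of replicate 2. The multiple was 1 for 10 edge members and at most 5 for 47, with a median of 4.501. Likewise 92 of the 97 members had exactly the same pair of values as some other gene, which 73.3% of all genes had.

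A gene counted in 1 library alone would take such a value after shrinkage, while the table would still list it in both. The reads themselves were not used here, so this reading of the edges was not tested. Among the 21 detected members with a mean up to 5, 17 lay at an edge. Of all detected genes in that range 33.9% did, without matching for level. Being past the threshold in both libraries therefore does not show that both libraries held reads of these 17 receptors. Without the edge members, an alternative chosen after seeing the data, 11 detected receptors remained, namely the 7 with means above 5 and OR14A2, OR1F1, OR2I1P and OR2AJ1. On the edge ratio, OR8D2, OR2AT1P and OR13G1 came to 0.989, 0.889 and 0.858 of the largest towards replicate 1 among genes of like level. All of these lie above the range of the rule. If low values were shrunken, the SD over replicates understates the error of low members.

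**Figure D2:**
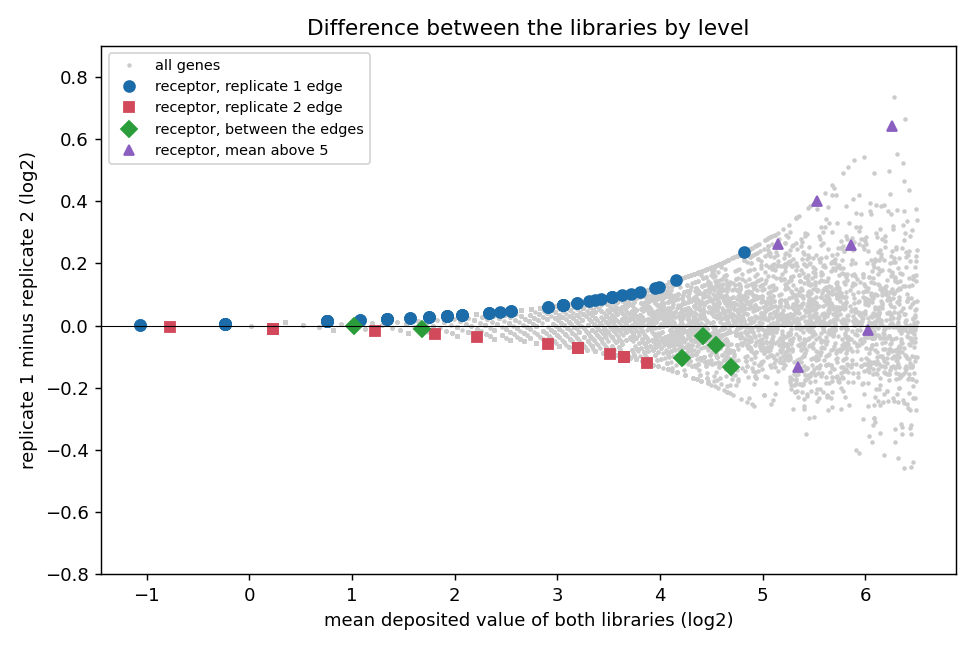
Replicate 1 minus replicate 2 (log2) against the mean level of both libraries for all genes with a mean up to 6.5 (grey) and for receptor genes, coloured by position at the replicate 1 edge, at the replicate 2 edge, between the edges, or with a mean above 5. Most receptors trace the upper or lower border of the grey cloud, and OR10V1 lies off the right side.

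Receptor genes had a value more often than receptor pseudogenes, but their levels did not keep 1 order. Of 404 annotated genes 74 (18.3%) had a value and 23 were detected, against 23 (5.12%) and 5 of 449 pseudogenes, whose coding sequence is broken. Over other unprocessed pseudogenes in the annotation the share with a value was 6.45%, and over protein-coding genes it was 42.5%. Among those with a value, the median level was 2.14 for genes and 2.91 for pseudogenes, or 0.69 and 2.07 per kilobase of exon. The ranges overlapped, from -1.06 to 9.14 for genes and from -0.24 to 6.26 for pseudogenes. The gap of -0.76 between the medians turned to 0.19 among detected members and to 0.41 when pseudogenes were taken by annotated gene type. It also turned, to 0.20, without the 14 members that have a near-identical relative.

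The detected pseudogenes were OR2AT1P, OR2I1P, OR8C1P, OR52Z1P and OR4K12P. OR8C1P had 3.85 in replicate 1 and 3.75 in replicate 2, OR52Z1P had 3.77 and 3.66, and OR4K12P had 3.57 and 3.48. These 3 lay at the replicate 1 edge. OR2I1P is annotated as protein coding despite its name. OR10AC1, OR5H8 and OR4Q2 are annotated as pseudogenes without a P.

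Exon length moved with the share of genes that had a value. Genes with a value had a median merged exon length of 2634 bases and those without 1104, whereas for pseudogenes the medians were 933 and 933.5. Among genes the share was 6.78% up to 1 kb, 14.6% at 1 to 2 kb, 28.7% at 2 to 4 kb and 32.3% above 4 kb. Pseudogenes did not follow that order: 18 of 352 up to 1 kb (5.11%) had a value, 2 of 69 at 1 to 2 kb (2.90%), 0 of 17 at 2 to 4 kb and 3 of 11 above 4 kb (27.3%). The shares of genes and pseudogenes were thus near each other up to 1 kb and far apart from 1 to 4 kb. The part of length in the difference between genes and pseudogenes was not tested.

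**Figure D3:**
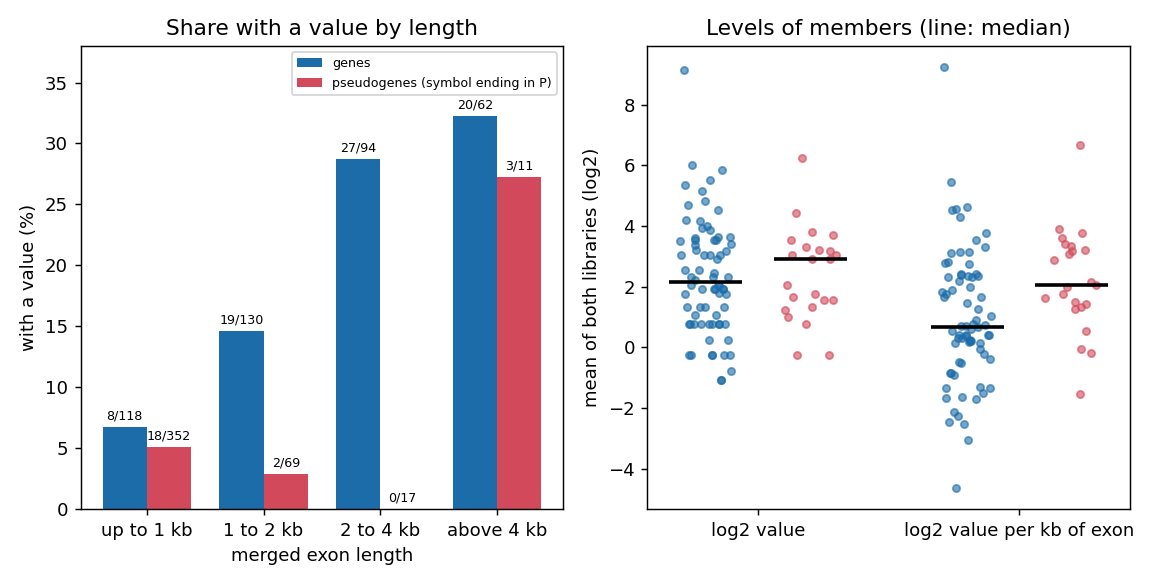
Left, percent of annotated receptor genes and pseudogenes with a value by merged exon length, with counts above the bars; right, mean level of each member with a value, as deposited and per kilobase of exon, genes in blue and pseudogenes in red, with the median as a line. Genes above 4 kb had a value in 20 of 62 cases, and the levels of genes and pseudogenes overlap.

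By family, members were found in 15 of 18 families and in 67 of 298 subfamilies. Family 8 had 13 of 48 (27.1%) with a value and 7 detected, with a median level of 3.51 and 2.18 per kilobase. Family 2 had 20 of 112 (17.9%), 8 of them detected, and family 7, which is mostly pseudogenes, had 6 of 112 (5.36%) with none detected. No member came from families 3, 12 and 55, but these have only 6, 3 and 1 annotated receptors. Of all 858 identifiers 11.3% had a value. Class I receptors, the fish-like group of families 51 to 56, had 7 of 103 (6.80%) with a value, 3 of them detected, and class II receptors had 90 of 750 (12%), 25 of them detected. The class I median was 3.19 and the class II median 2.14, but per kilobase these were 1.253 and 1.30, so the classes kept no order of level.

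Subfamilies OR10V and OR1F had a value for all 3 of their receptors, 2 of which are pseudogenes in each. Full cover was not particular to them. OR2AG, OR4E, OR7C and OR14A had 2 of 2, and several subfamilies with a single receptor had a value for it. In OR10V, OR10V1 was followed at a distance by the pseudogenes OR10V2P, with a mean of 1.68, and OR10V3P, with 1.02, which lie in the span of STX3 on its own strand. In OR1F, means ran from 1.34 to 4.55. OR8B had 7 of 11 with a value, from -0.24 to 3.88, and OR8D 2 of 3, at 5.52 and 5.86. OR7E, a large subfamily of pseudogenes, had 3 of 87.

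OR8B3 and OR8B2 show how closely relatives can match. Their coding sequences of 942 bases differ at 12 positions (98.7% identity), so reads could be shared between them. OR8B3 had 3.81 in replicate 1 and 3.94 in replicate 2, at the replicate 2 edge, and OR8B2 had 0.77 and 0.75, at the replicate 1 edge. In all, 14 members had a relative of at least 95% identity over at least 500 aligned bases, and this pair was the only case where the relative had a value too. Of 178 annotated receptors with such a relative 7.87% had a value, against 12.3% of the others. Coding bases 232 to 321 of both genes, from the GENCODE 29 transcripts, are printed with the 4 bases that differ in capitals:
OR8B3: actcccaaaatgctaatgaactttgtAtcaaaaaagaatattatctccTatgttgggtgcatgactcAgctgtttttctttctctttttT
OR8B2: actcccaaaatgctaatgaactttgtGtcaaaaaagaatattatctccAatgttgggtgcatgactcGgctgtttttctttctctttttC

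Annotated receptors formed 88 clusters when neighbours up to 1 megabase apart were joined, and 24 clusters held a member. The 6 clusters with the most members held 68 of the 97. None of the 31 receptors that stood alone had a value, where 11.3% of all 858 identifiers did. Most of those that stood alone are pseudogenes, and 5.12% of all receptor pseudogenes had a value. Of 17 clusters with at least 10 receptors, 2 had no member, on chromosome 1 with 31 receptors and on chromosome 11 with 10.

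The highest share in a large cluster was at chr11:123753488-124602238, where 13 of 44 receptors (29.5%) had a value and 8 were detected. It holds OR8D1, OR8D2, 7 OR8B genes, OR8C1P, OR8A1, OR8X1P and OR6M1. On its minus strand 12 of 25 (48%) had a value, and on its plus strand 1 of 19 (5.26%), which was OR8A1, with 3.47 in replicate 1 and 3.56 in replicate 2. The second was at chr1:247449118-248682304, with 16 of 56 (28.6%) and 7 detected. There the minus strand had 9 of 21 (42.9%), with a median level of 3.95, and the plus strand 7 of 35 (20%), with 2.07. Over all receptors the strands were close, with 50 of 469 (10.7%) on the plus and 47 of 384 (12.2%) on the minus strand, although 18 of the 28 detected members lay on the minus strand.

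The chromosome 1 cluster holds a run of detected neighbours on the minus strand. Between the start of OR13G1 and the end of OR1C1, chr1:247670812-247760556, 5 receptors are annotated and OR13G1, OR6F1, OR14A2 and OR1C1 had a value. Of these, OR13G1, OR6F1 and OR14A2, lie in the span of ENSG00000235749, an antisense gene on the plus strand with 1.35 in replicate 1 and 1.33 in replicate 2. ENSG00000236817, on the minus strand at chr1:247565639-247640854, had 9.88 and 9.60. It was the higher of 2 valued genes outside the family within 50 kb of OR13G1 and is named for its level.

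In contrast, the 2 largest clusters held few members. At chr11:54591480-59749574, where OR10V1 lies, 11 of 158 (6.96%) had a value, and OR10V1 was the only one detected. At chr11:3390780-7941708, which holds most class I receptors, 10 of 121 (8.26%) had one. A receptor had a value in 25.8% of cases after a neighbour with a value in the same cluster (23 of 89) and in 10.4% after one without (70 of 676).

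**Figure D4:**
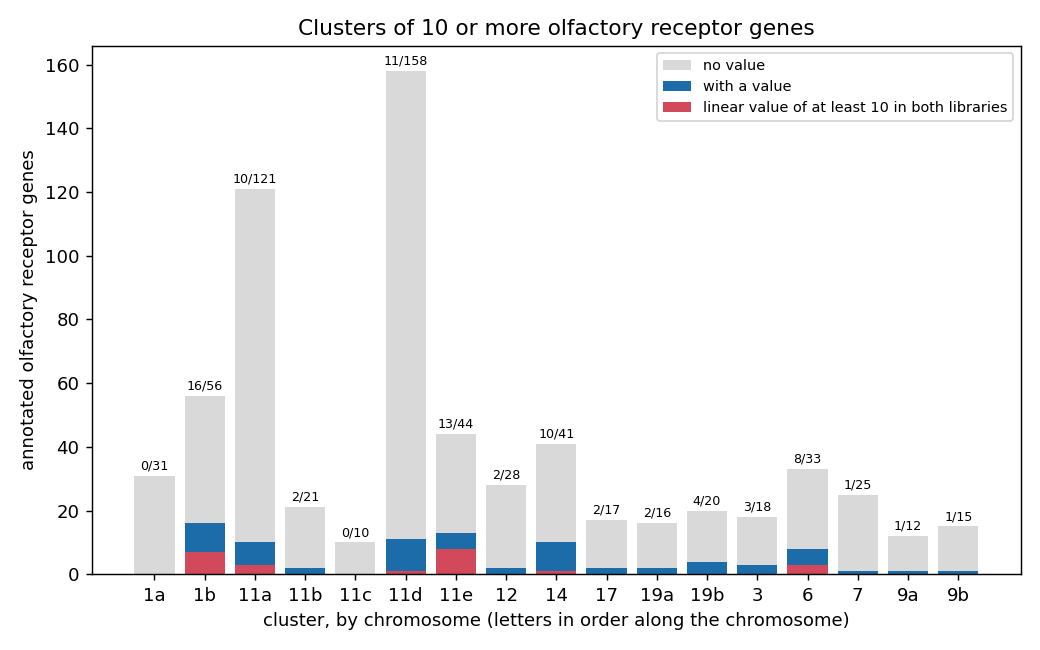
Annotated olfactory receptor genes in each cluster of at least 10, ordered by chromosome, with those with a value in blue and those detected in red, and the count with a value over the total above each bar. The bars labelled 1b (16 of 56) and 11e (13 of 44) have the highest shares with a value, and the tallest bar, 11d, has 11 of 158.

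Overlap with exons of a gene on the other strand went with a larger share of receptors that had a value, and the gap in level depended on how partners were defined. Of 36 receptors with at least 1 such shared base, 8 (22.2%) had a value, and of 817 without, 89 (10.9%). The median level was 2.41 with and 2.22 without the overlap, or 1.19 and 1.26 per kilobase. Where the partner was protein coding, 5 of 15 (33.3%) had a value, with a median level of 3.20 against 2.07 for the rest, or 3.08 and 1.14 per kilobase. Where the partner had a value, 3 of 4 receptors had one, with a median of 4.42 against 2.14, or 2.00 and 1.26 per kilobase. Taking any overlap of gene spans on opposite strands, 26 of 155 (16.8%) had a value and their median was 3.06, against 71 of 698 (10.2%) and 1.92. Spans on the same strand gave 14 of 121 (11.6%) against 83 of 732 (11.3%). Exonic overlap on the same strand gave 9 of 33 (27.3%) against 88 of 820 (10.7%). The larger share with exonic overlap was thus not particular to the other strand.

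The 8 members with an exonic overlap were OR10V1, OR2I1P, OR5K2, OR7E126P, OR10AC1, OR2C3, OR2T29 and OR7C1. OR2I1P shares 722 bases with GABBR1, a subunit of the GABA type B receptor, which had 3.62 in replicate 1 and 3.54 in replicate 2, below the 4.40 and 4.44 of OR2I1P. It also shares 836 bases with UBD, a ubiquitin-like modifier with no value. OR2C3 shares 115 bases with GCSAML, which had 1.79 and 1.82, near the 1.77 and 1.74 of the receptor.

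The partners of the other 5 had no value. OR5K2, with 3.16 in replicate 1 and 3.24 in replicate 2, shares 272 bases with CLDND1. OR7E126P, with 2.88 and 2.94, shares 406 bases with XNDC1N. OR10AC1 had 1.94 and 1.91. OR2T29, with -0.23 and -0.24, and OR7C1 were among the lowest members.

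Several other high members lie within the spans of genes on the other strand. OR2H2 lies within GABBR1, at chr6:29555629-29633976, and the mean of GABBR1 minus that of OR2H2 was -2.44 on the log2 scale. OR2AT1P lies within SLCO2B1, an organic anion transporter gene that had 0.53 in replicate 1 and 0.52 in replicate 2. It also lies within ENSG00000255395, on its own strand, which had 3.79 and 3.74. Of 11 opposite-strand span pairs of a receptor and a gene outside the family, both with a value, the receptor had the higher level in 8. OR10V1 has 4 valued genes outside the family within 50 kb, and the highest of them, chosen for its level, was ENSG00000254477 on the same strand, with 9.26 and 9.06. Whether neighbouring transcription moves with the receptor values was not tested.

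Promoter sequences from RefSeq (GRCh38.p14), 250 bases before to 50 after the start, were at hand for 57 members. CCCNNGGG, the core letters of the Olf/EBF factor site, was searched on both strands and found in 8 (14.0%), in 6.43% of 249 receptors without a value and in 18.6% of all 27305 promoters. TAATTA, a homeodomain site, was found in 13 (22.8%), in 22.5% of receptors without a value and in 4.98% of all promoters. A match describes the letters only.

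The partners of receptors in olfactory neurons were represented unevenly. Of 17 genes of olfactory signal transduction 10 had a value and 3 were detected, with a median of 2.33, where 42.5% of protein-coding genes had a value and 45.5% of genes with a value were detected. ADCY3, the adenylyl cyclase of the pathway, had 9.94 in replicate 1 and 10.02 in replicate 2, CAMK2B, a calmodulin-dependent kinase subunit, 9.54 and 9.53, and GNAL, the olfactory G protein alpha subunit, 7.92 and 7.58. The channel subunits CNGA2, CNGA4 and CNGB1 had no value, nor had OMP, the marker protein of mature olfactory neurons. Of the 12 markers of those neurons only ADCY3, GNAL and KIRREL2, with 3.78 and 3.85, had a value. None of 4 markers of immature olfactory neurons had one, and 1 of 5 of sustentacular and basal cells, SEC14L3, at 1.34.

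Genes that control receptor choice in the nose had a value in 10 of 15 cases, with a median of 2.41 and 4 detected, so that the detected share was near that of all genes. KDM1A, a lysine demethylase of histones, had 8.49 in replicate 1 and 8.05 in replicate 2, ATF5, a stress-response transcription factor, 7.18 and 7.28, and EHMT2, a histone H3 lysine methyltransferase, 4.01 and 3.92. ADCY3 was the fourth. Of 8 trafficking genes only REEP1 had a value, with a mean of 3.31, and RTP1 and RTP2, which bring receptors to the cell surface, had none. Of 17 receptors known from outside the nose only OR2AT4, known from skin keratinocytes, had a value, where 18.3% of all receptor genes did. Its levels were 3.41 and 3.33, at the replicate 1 edge, and its mean per kilobase of exon was 0.23. OR2AT4 lies within ENSG00000284722 on its own strand, which shares 201 exonic bases with it and had 3.77 and 3.66.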

How the data were processed

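Vesicle RNA was sequenced in 2 libraries of 1 group. Per the submitters' processing notes, FastQC 0.11.5, STAR 2.6.1a and the build hg38 were used. No source used here states the counter, its strand setting, the annotation or the transform. The authors deposited 1 log2 value per gene and library, and the differences between libraries narrow towards 0 at low values. Members and gene lists were chosen with earlier results of these data known. Symbols came from a table of gene names, and positions, exons and gene types from GENCODE 29 (GRCh38), which held 853 of the 858 identifiers and all 97 members. Overlaps need 1 shared base. Relatives were found with blastn 2.17.0. The edge rule was tried on simulated data with known answers, whose values are not quoted. The steps and the shrinkage were built into those data, so they cannot show which libraries held reads here. Versions were numpy 2.4.6, pandas 2.3.3 and matplotlib 3.10.9 under Python 3.11.15. No test between conditions was run and no p-value is given, since there is 1 group, and no interval, since depth is unknown. Genes named were the 20 highest and 5 lowest members, those detected, those with opposite-strand exonic overlap, the largest differences between libraries, and up to 4 genes per list; other named partners, neighbours and the OR8B pair were chosen after their values were seen. A planned count of a protein motif was not run. Alternatives changed the threshold, pseudocount, length scaling, overlap and pseudogene definitions, symbol source, near-identical members and replicates.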

Additional observations from a re-analysis of the deposited data

How the results depend on the processing

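Of 51 alternative values over 10 results, 25 stayed within the bounds set, 18 moved and 8 reversed. For median levels and their gaps between groups, the bound was the SD of that result over the 2 libraries. That SD can be very small, so even the shift of genes minus pseudogenes from -0.76 to -0.73 counted as moved. The tally therefore does not measure how firm a result is. The count of detected members, 28, became 45 at a linear value of 5, 11 at 20 and 11 without members at the edge of 1 library, an alternative chosen after seeing the data; without either replicate it was 28 to 29. The median level, 2.22, was 3.97 for detected members, 1.26 per kilobase and 2.498 with 1 added to linear values, and 2.20 to 2.24 with a replicate left out. The median with minus without opposite-strand exonic overlap, 0.20, became 2.87 among detected members, -0.073 per kilobase, 0.17 with 1 added, 1.13 by span, 2.28 for partners with a value and 1.13 for protein-coding partners, and 0.19 to 0.21 with a replicate left out. The matching difference in the percent with a value, 11.3 points, was 6.60 by span, 22.4 for protein-coding partners and 63.9 for the 4 receptors whose partner had a value. Genes minus pseudogenes, -0.76, became 0.19 among detected members, -1.38 per kilobase, -0.65 with 1 added, 0.41 by annotated type and 0.20 without near-identical members, and -0.73 without either replicate. The difference in percent with a value, 13.2 points, stayed between 13.3 and 14.0. Class I minus class II, 1.05, became -0.44 among detected members, -0.043 per kilobase and 0.90 with 1 added, and 1.01 to 1.08 with a replicate left out. The median difference between libraries, -0.09, became 0.015 at a linear value of 20 and 0.034 without edge members, also chosen after seeing the data. The 0 members that differ 2-fold became 2 at a ratio of at least 5 to 4. The cause of these shifts was not tested. No paired analysis was possible because both libraries belong to 1 group. Unknown depth and an unstated transform limit what low members can show.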

Other observations

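Other families with chemosensory receptors were counted as well. Over all protein-coding genes 42.5% had a value, and over unprocessed pseudogenes outside the olfactory receptors 6.45% did. Of all genes with a value 45.5% were detected. Of 33 taste receptor genes 4 had a value and none was detected, with a median level of 2.30 and TAS2R16, a bitter taste receptor, highest at a mean of 3.06. Of 64 vomeronasal receptor genes, mostly pseudogenes in humans, 5 had a value and 1 was detected, VN1R104P, at 3.53. All 4 taste and all 5 vomeronasal receptors with a value lay at the edge of 1 library, as did 71.4% of all genes with a mean up to 5. None of 9 trace amine receptors or 3 formyl peptide receptors had a value. Of 17 MS4A genes 3 had one, with a median of 1.23, and none was detected. Among these was MS4A2, which is also in the list of mast cell markers.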
